A study of Danio rerio with 12 samples.

Results

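The miR-30 family was described in whole zebrafish embryos through every row of the deposited tables that carries the name of mir-30a, mir-30b, mir-30c, mir-30d or mir-30e, on either arm of the hairpin. This rule uses names alone and gave 10 features of the 464 miRNA features in all, made up of 5 major arms and 5 minor arms, the minor arm being marked with a star. Each arm had 1 row, so no near-equal hairpin copies had to be merged within the family, and miR-30e was present as its second hairpin copy, mir-30e-2.

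Small RNA was sequenced from embryos of the TL wild type strain in 4 groups of 3 libraries: TCDD at 60 hours post fertilization (hpf), the solvent DMSO at 60 hpf, TCDD at 36 hpf, and DMSO at 36 hpf. TCDD is the dioxin 2,3,7,8-tetrachlorodibenzo-p-dioxin, a ligand of the aryl hydrocarbon receptor, and the comparison with DMSO asks how exposed embryos differ in their miRNAs. No group carries a transgene or a mutation according to the labels. Neither the dose, the start and the length of exposure, nor how many embryos or clutches stand behind a library, could be taken from the labels, so p-values measure the spread between these libraries, which may be technical.

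The miR-30 miRNAs have the same seed, the stretch near the 5′ end that pairs with target messages, and are therefore predicted to share many targets. They are enriched in the vertebrate kidney, where podocytes and tubule cells carry them, and in Xenopus their loss disturbs the pronephros, the embryonic kidney. In zebrafish the family has been reported to restrain Smoothened, a transducer of Hedgehog signals, in early muscle, and Dll4, a Notch ligand that limits vessel sprouting. From each hairpin 1 arm is usually loaded into Argonaute and kept (the major arm) and the other is mostly degraded (the minor arm). In the RefSeq annotation of assembly GRCz12tu, all 5 genes were matched by name. The genes of miR-30c and miR-30e-2 are each other's nearest miRNA gene within 20 kb, and so are those of miR-30b and miR-30d, while miR-30a has no other miRNA gene within 20 kb.

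The libraries held 2007639 to 4210840 miRNA counts at 60 hpf and 459634 to 3557670 at 36 hpf, so a floor of 3 counts corresponds to 0.712 to 6.53 CPM, counts scaled to a library total of 1000000, over the 12 libraries. Of the 14 marker miRNAs of muscle, nerve, epidermis, blood, liver and the early embryo, all were detected, mir-144 at 0 counts in 1 library, with means over the 12 libraries of 117 to 61662 CPM, as for a whole embryo. In a principal component analysis of all tested features, the 2 times lay on opposite sides of the first component. TCDD replicate 3 at each time lay far from the others on the second, and TCDD replicate 2 at each time on the third. Values without these libraries are given beside the results that they move most.

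All 5 major arms were abundant. MiR-30c had the highest mean level over the 12 libraries, 12619 CPM, and ranked 21 of the 464 features. MiR-30e-2 followed at 6903 CPM (rank 35), then miR-30b at 3670 CPM (rank 54), miR-30d at 3577 CPM (rank 56) and miR-30a at 891 CPM (rank 113). The levels are compared as counted, since the recovery of each sequence by the ligation-based library method is unknown. MiR-30c was above miR-30e-2 in each of the 12 libraries, by a ratio of 1.27 to 5.41. MiR-30b was above miR-30d in each of the 6 libraries of 60 hpf, with a ratio of miR-30d over miR-30b of 0.485 to 0.949. At 36 hpf their order did not exceed the spread, with that ratio at 0.246 to 2.95 in the 6 libraries. Together the 5 major arms summed to 12612 to 53273 CPM over the 12 libraries, with a median of 27244 CPM. With total count scaling the sum ran from 15288 CPM in TCDD replicate 1 of 60 hpf to 48919 CPM in DMSO replicate 1 of 36 hpf.

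The minor arms covered a wider range. MiR-30e-2* averaged 629 CPM (rank 125 of 464), close to the major arm of miR-30a. MiR-30a* averaged 27.1 CPM, miR-30d* 19.8 CPM and miR-30c* 6.04 CPM. MiR-30b* averaged 2.16 CPM, with at most 11 counts in any library. It had 0 counts in DMSO replicate 2 at 36 hpf, which allows a level of up to 2.13 CPM before TMM scaling, and it did not pass the filter on low counts, so 9 of the 10 arms were tested.

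Over development the clearest difference in the family was in miR-30a, whose 2 arms were both lower at 60 hpf than at 36 hpf under either treatment. Among TCDD embryos, miR-30a had 150, 222 and 309 CPM at 60 hpf, against 1646, 472 and 1379 CPM at 36 hpf. Among DMSO embryos, it had 325, 378 and 379 CPM at 60 hpf, against 2579, 1671 and 1185 CPM at 36 hpf. The highest library of 60 hpf lay below the lowest of 36 hpf in each treatment, and the nearest approach was TCDD replicate 2 of 36 hpf. The log2 fold change was −2.36 with a standard error (SE) of 0.49 in TCDD embryos, 5.13-fold lower, with an adjusted p of 0.00706 (edgeR's quasi-likelihood test, Benjamini-Hochberg over the 410 features tested). In DMSO embryos it was −2.33 (SE 0.49), 5.02-fold lower, with an adjusted p of 0.00740 by edgeR. Without TCDD replicate 2 of 36 hpf the value in TCDD embryos was −2.71 (edgeR adjusted p = 0.00349), the largest change when a single library was left out. Over all such fits it was −2.71 to −2.07 in TCDD embryos, with an edgeR adjusted p of 0.00349 to 0.0361. In DMSO embryos these fits gave −2.58 to −2.12, with an edgeR adjusted p of 0.00165 to 0.0359. The libraries of 60 hpf were mostly deeper than those of 36 hpf, and the part of depth in the result was not tested.

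The minor arm of the same hairpin fell with it. MiR-30a* had 13.4, 10.5 and 2.29 CPM in TCDD embryos at 60 hpf, against 83.7, 41.0 and 61.8 CPM in TCDD embryos at 36 hpf. In DMSO embryos it had 5.31, 1.96 and 3.24 CPM at 60 hpf, against 43.6, 13.6 and 44.6 CPM at 36 hpf. Again no library of 60 hpf reached the lowest library of 36 hpf under the same treatment, although the values of 60 hpf DMSO embryos rest on only 19, 5 and 10 counts. The log2 fold change was −2.84 (SE 0.69, edgeR adjusted p = 0.0147) in TCDD embryos and −3.24 (SE 0.72, edgeR adjusted p = 0.00965) in DMSO embryos. The call in TCDD embryos was lost without both TCDD libraries numbered 2, at −3.16 (edgeR adjusted p = 0.0610). CPM are relative to the other miRNAs of a library and do not measure an absolute loss. A lower value in whole embryos can come from fewer cells of a type, less RNA per cell or more of other miRNAs. These cannot be told apart here.

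MiR-30c, the most abundant member, was lower at 60 hpf by a smaller factor. It had 5635, 6711 and 8448 CPM in TCDD embryos at 60 hpf, against 13034, 20111 and 12492 CPM at 36 hpf. In DMSO embryos it had 10435, 10351 and 11308 CPM at 60 hpf, against 25840, 13961 and 13098 CPM at 36 hpf. The libraries of the 2 times did not overlap in either treatment. The change passed the test in TCDD embryos, with a value of −1.13 (SE 0.33, edgeR adjusted p = 0.0302), and missed it in DMSO embryos, at −0.72 (SE 0.32, edgeR adjusted p = 0.159). The difference between those changes was itself −0.41 and uncalled (edgeR adjusted p = 0.994). The call in TCDD embryos was lost in 6 of 22 alternatives. With the library number as a block over all 12 libraries it was −1.12 (edgeR adjusted p = 0.0580). A block limited to the TCDD libraries, added after seeing the data, kept the call (−1.12, edgeR adjusted p = 0.0398). It assumes that the numbers pair the TCDD libraries, which the labels do not state. Without both TCDD libraries numbered 2 it was −0.84 (edgeR adjusted p = 0.166). Without TCDD replicate 2 of 36 hpf it became −0.86 (edgeR adjusted p = 0.0918), without TCDD replicate 1 of 60 hpf −1.0 (edgeR adjusted p = 0.118), without TCDD replicate 2 of 60 hpf −1.15 (edgeR adjusted p = 0.0633), and with total count scaling −0.66 (edgeR adjusted p = 0.154).

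The other members did not pass the test between the times in either treatment. MiR-30d had 1205, 2027 and 2929 CPM in TCDD embryos at 60 hpf, against 3812, 931 and 5236 CPM at 36 hpf. It had 2681, 2906 and 3401 CPM in DMSO embryos at 60 hpf, against 9438, 4932 and 3423 CPM at 36 hpf. The groups overlapped in TCDD embryos through TCDD replicate 2 of 36 hpf and just failed to overlap in DMSO embryos. The log2 fold changes were −0.70 (SE 0.59) in TCDD embryos and −0.99 (SE 0.59) in DMSO embryos. In TCDD embryos the value was −1.13 without TCDD replicate 2 of 36 hpf, −0.20 without TCDD replicate 3 of 36 hpf and −0.40 without TCDD replicate 1 of 60 hpf, and passed the test in none of these (edgeR adjusted p of 0.119 or more). MiR-30e-2 gave −0.36 in TCDD embryos and −0.26 in DMSO embryos, and miR-30b, the member with the smallest fold changes among the major arms, gave −0.20 and −0.09. With total count scaling miR-30e-2 had a positive value in TCDD embryos, 0.09, and miR-30b in both treatments, 0.26 in TCDD and 0.0083 in DMSO embryos. In all, 3 of the 9 tested arms were called lower at 60 hpf in TCDD embryos, where 8.78% of the 410 features were called lower. In DMSO embryos 2 of 9 were called lower, where 5.61% of the features were. The calls in DMSO embryos were both arms of the miR-30a hairpin, and those in TCDD embryos were the same arms and miR-30c. These counts therefore do not describe the family as a whole. Libraries did not overlap in the lower direction for 3 of the 9 arms in TCDD embryos, against 17.6% of all features, and for 4 of the 9 in DMSO embryos, against 17.1%. No miR-30 arm was called higher at 60 hpf in either treatment.

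**Figure D1:**
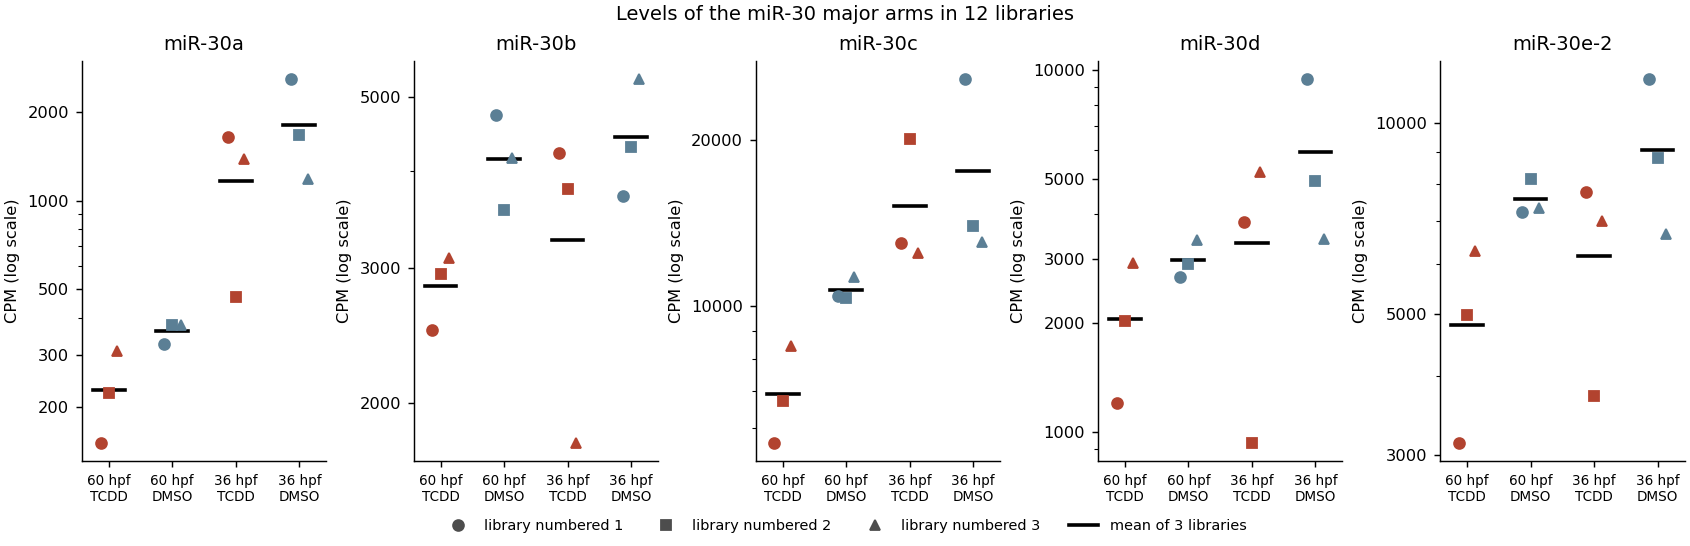
Level in CPM (log scale) of each miR-30 major arm in every library, with TCDD in red and DMSO in blue; symbols give the library number and bars the mean of 3 libraries. All 6 miR-30a libraries of 60 hpf lie between 150 and 379 CPM, below the 6 of 36 hpf (472 to 2579 CPM), while the miR-30b libraries of the 2 times overlap.

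**Figure D2:**
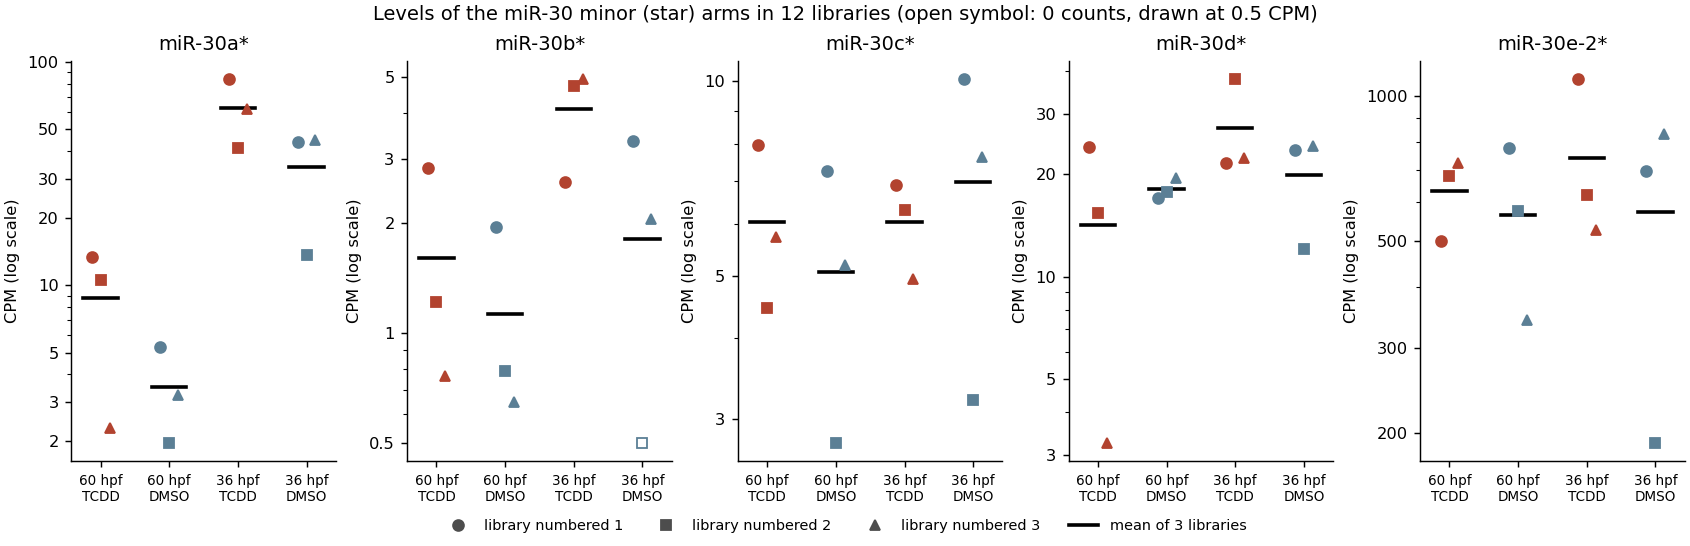
Level in CPM (log scale) of each miR-30 minor arm in every library, with TCDD in red and DMSO in blue; symbols give the library number, bars the mean of 3 libraries, and the open symbol a library with 0 counts. MiR-30a* was at 13.4 CPM or less in the 6 libraries of 60 hpf and at 13.6 CPM or more in the 6 of 36 hpf.

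Ratios within the family do not depend on how libraries are scaled, and they gave the same order for miR-30a. Its share of the summed major arms was 1.33% ± 0.136 in TCDD and 1.40% ± 0.107 in DMSO embryos at 60 hpf, against 3.99% ± 2.06 in TCDD and 4.60% ± 0.527 in DMSO embryos at 36 hpf (SD, n = 3 each). The highest share at 60 hpf was 1.49% and the lowest at 36 hpf was 1.63%, in TCDD replicate 2, with a Wilson 95% interval of 1.45% to 1.82% that covers counting error only. Relative to miR-30d, miR-30a stood at a ratio of 0.105 to 0.130 in the 6 libraries of 60 hpf and of 0.263 to 0.507 in the 6 libraries of 36 hpf. These ratios are descriptions with no test. MiR-30b took 17.3% ± 2.53 of the pool in TCDD and 16.1% ± 2.33 in DMSO embryos at 60 hpf, against 11.1% ± 4.11 in TCDD and 12.5% ± 5.40 in DMSO embryos at 36 hpf (SD, n = 3 each). In TCDD embryos the libraries did not overlap, at 14.7% to 19.7% at 60 hpf and 6.36% to 13.8% at 36 hpf. In DMSO embryos they overlapped, at 14.1% to 18.7% at 60 hpf and 6.97% to 17.8% at 36 hpf.

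Outside TCDD replicate 2 of 36 hpf, miR-30b made up 6.36% to 19.7% of the pool and miR-30d 9.56% to 18.8%. In TCDD replicate 2 of 36 hpf miR-30c made up 69.3% of the summed major arms (Wilson 95% interval 68.6% to 70.0%), while it made up 39.8% to 48.5% in the other 11 libraries. In the same library miR-30d was at 3.21% and miR-30e-2 at 12.8%, each the lowest of the 12 libraries. The ratio of miR-30c over miR-30e-2, the products of neighbouring genes, was 5.41 in that library and 1.27 to 2.21 in the other 11. The library has 739920 miRNA counts, of which 18383 fell on the 5 major arms.

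**Figure D3:**
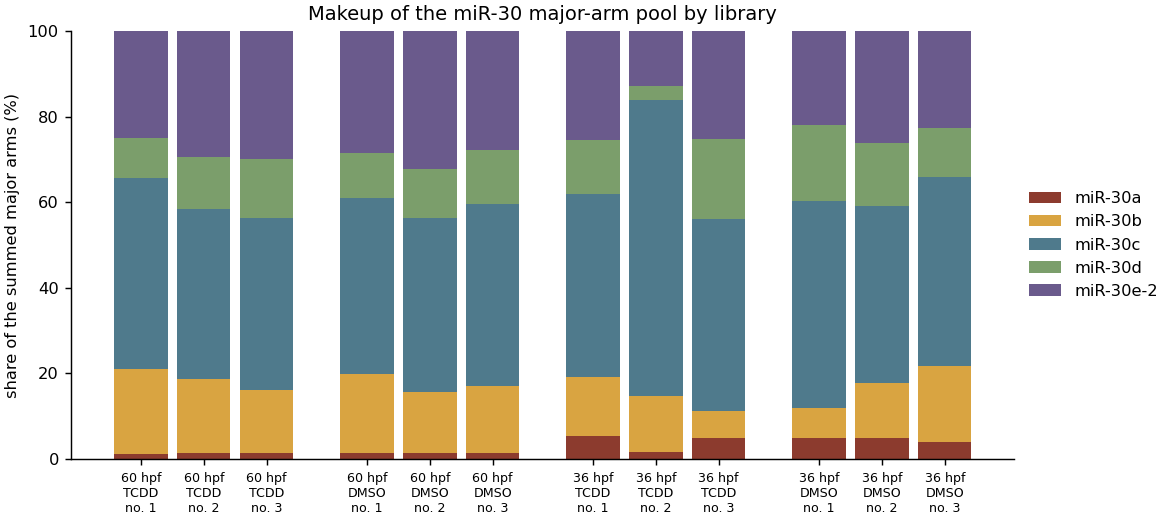
Share of each member in the summed miR-30 major arms (%), stacked for each of the 12 libraries. MiR-30c holds 39.8% to 48.5% in 11 libraries and 69.3% in TCDD replicate 2 of 36 hpf, and miR-30a is the thinnest band in every library, at or below 1.49% in those of 60 hpf.

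Between TCDD and DMSO embryos no miR-30 arm passed the test at either time, and 0 of the 9 had an unadjusted p under 0.05 by edgeR. At 60 hpf all 5 major arms had negative log2 fold changes, and the libraries of 4 of them did not overlap. MiR-30a had 150, 222 and 309 CPM in TCDD embryos, against 325, 378 and 379 CPM in DMSO embryos, or −0.67 on the log2 scale (SE 0.47, edgeR adjusted p = 0.916). MiR-30c, with 5635, 6711 and 8448 CPM in TCDD embryos and 10435, 10351 and 11308 CPM in DMSO embryos, had the smallest SE of the major arms and gave −0.63 (SE 0.32, edgeR adjusted p = 0.816). MiR-30e-2 had 3134, 4981 and 6284 CPM in TCDD embryos, against 7233, 8144 and 7355 CPM in DMSO embryos, or −0.66 (SE 0.36, edgeR adjusted p = 0.816). In all 3 of these members TCDD replicate 3 was the TCDD library closest to the DMSO libraries and TCDD replicate 1 the farthest.

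MiR-30b at 60 hpf had 2487, 2939 and 3087 CPM in TCDD embryos, against 4740, 3564 and 4156 CPM in DMSO embryos, or −0.55 (SE 0.33, edgeR adjusted p = 0.870). MiR-30d gave −0.54 (SE 0.58, edgeR adjusted p = 0.991), and its groups overlapped through TCDD replicate 3. Without TCDD replicate 3 of 60 hpf the values were −0.95 for miR-30a, −0.61 for miR-30b, −0.79 for miR-30c, −0.89 for miR-30d and −0.90 for miR-30e-2, and none passed the test (edgeR adjusted p of 0.642 or more). Without TCDD replicate 1 of 60 hpf all were closer to no change. They were then −0.44, −0.46, −0.50, −0.27 and −0.43 in the same order (edgeR adjusted p = 0.999 for each). Non-overlap in the lower direction was seen in 10.7% of the 410 features, and 0.244% (1 feature, not a miR-30 arm) were called. The separation depended on the scaling. With total count scaling, which moves the median log2 fold change of all features at 60 hpf to 0.31 from a value of 0.00 with the trimmed mean of M values (TMM), 0 of the 5 major arms were free of overlap, and with relative log expression (RLE) scaling 3 were. The median of the 5 major arms was −0.63 with TMM, −0.59 with RLE and −0.32 with total counts, below that of all features under each of these scalings.

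The summed level of the major arms at 60 hpf was 12612, 16880 and 21057 CPM in TCDD embryos, with a mean of 16850 ± 4222, against 25414, 25341 and 26600 CPM in DMSO embryos, with a mean of 25785 ± 707 (SD, n = 3 each). The TCDD libraries all lay below the DMSO libraries and were more spread. With total count scaling the sums were 15288, 20748 and 26189 CPM in TCDD embryos, against 24331, 27164 and 25440 CPM in DMSO embryos, and TCDD replicate 3 then lay among the DMSO libraries. MiR-30c and miR-30e-2 supply most of this sum.

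At 36 hpf the spread within the groups was larger. MiR-30c had 13034, 20111 and 12492 CPM in TCDD embryos, against 25840, 13961 and 13098 CPM in DMSO embryos, or −0.21 on the log2 scale (SE 0.32). MiR-30e-2 had 7775, 3720 and 7006 CPM in TCDD embryos, against 11704, 8816 and 6690 CPM in DMSO embryos, or −0.56 (SE 0.36). The groups of all 9 tested miR-30 arms overlapped, and 5.37% of the 410 features did not. The other major arms gave −0.64 (SE 0.47) for miR-30a, −0.44 (SE 0.33) for miR-30b and −0.83 (SE 0.59) for miR-30d. The adjusted p by edgeR was 0.996 for all 9 arms, and no feature of the 410 was called (0.0%), with 17 at an unadjusted p under 0.05 by edgeR and 0 called by DESeq2 or limma-voom. Without TCDD replicate 2 of 36 hpf, miR-30a gave −0.31 and miR-30d −0.43, while miR-30c gave −0.52 and miR-30b −0.67. Without TCDD replicate 3 of 36 hpf these values moved the other way. MiR-30a then gave −0.82 and miR-30d −1.37, while miR-30c gave −0.08 and miR-30b −0.20.

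The summed major arms at 36 hpf were 30488, 29023 and 27888 CPM in TCDD embryos (mean 29133 ± 1303), against 53273, 33685 and 29662 CPM in DMSO embryos (mean 38873 ± 12632; SD, n = 3 each). DMSO replicate 1 carried most of the difference, and TCDD replicate 1 lay above DMSO replicate 3. Over the major arms the median log2 fold change was −0.63 at 60 hpf and −0.56 at 36 hpf, where the median was 0.00 and 0.05 over all features and −0.12 and 0.04 over all major arms tested. All 5 were negative at both times, except that miR-30c at 36 hpf was at 0.09 without DMSO replicate 1, and so were 61.3% of all major arms tested at 60 hpf and 46.9% at 36 hpf (50.0% and 45.4% of all features). The members share libraries, so they are not independent observations of a treatment effect.

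The TCDD effect did not differ detectably between the times for any arm. The difference of the effect (60 minus 36 hpf) ran from −0.81 for miR-30d* to 0.39 for miR-30a* on the log2 scale, with an adjusted p of 0.994 by edgeR for all 9 arms. No feature of the 410 was called (0.0%), with 19 at an unadjusted p under 0.05 by edgeR, 6 called by DESeq2 and 0 by limma-voom.

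**Figure D4:**
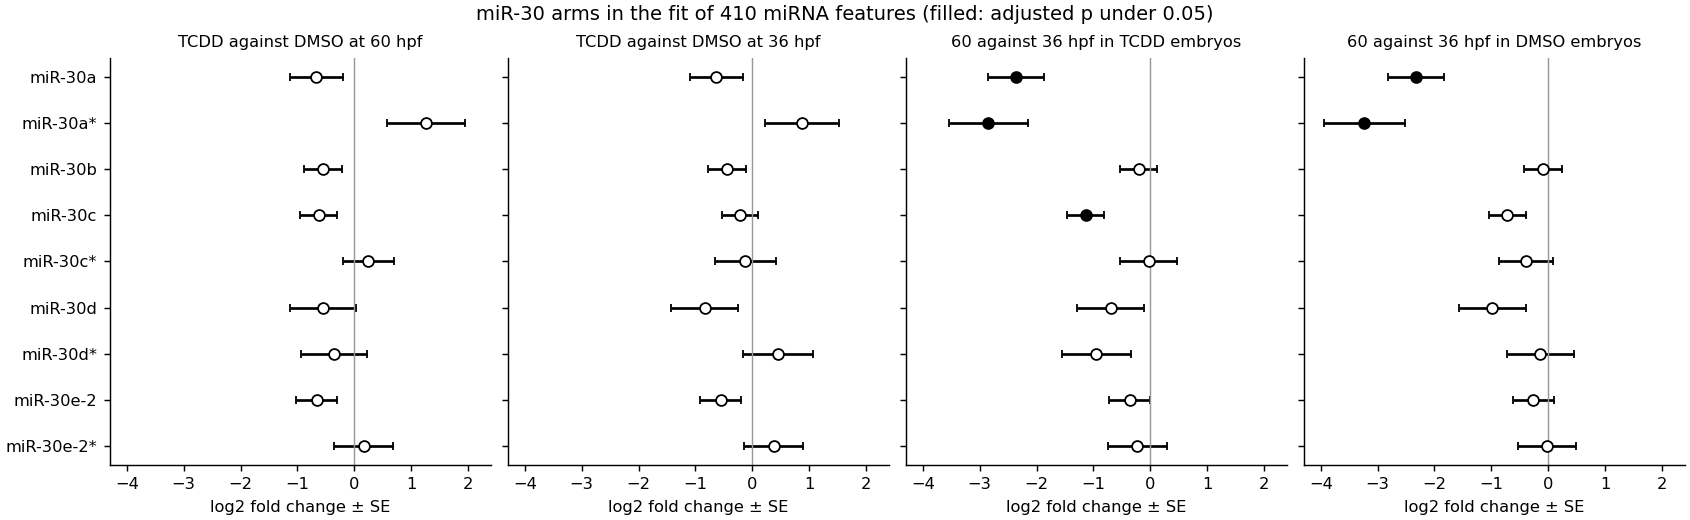
Log2 fold change with its SE of the 9 tested miR-30 arms in 4 comparisons, from the edgeR fit of 410 features; filled points have an adjusted p under 0.05. Filled points are miR-30a and miR-30a* in both comparisons of 60 with 36 hpf and miR-30c in that of TCDD embryos, and none stands in the comparisons of TCDD with DMSO.

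Most tested minor arms had the opposite sign to their major arms under TCDD, and none passed the test. MiR-30a* at 60 hpf had 13.4, 10.5 and 2.29 CPM in TCDD embryos, against 5.31, 1.96 and 3.24 CPM in DMSO embryos, or 1.27 on the log2 scale (SE 0.69, edgeR adjusted p = 0.816). At 36 hpf it had 83.7, 41.0 and 61.8 CPM in TCDD embryos, against 43.6, 13.6 and 44.6 CPM in DMSO embryos, or 0.88 (SE 0.65, edgeR adjusted p = 0.996). The groups overlapped at both times. Without TCDD replicate 3 of 60 hpf the value at 60 hpf was 1.74 (edgeR adjusted p = 0.320), and without TCDD replicate 1 of 60 hpf 0.79 (edgeR adjusted p = 0.999). MiR-30e-2* had 500, 680 and 726 CPM in TCDD embryos, against 778, 575 and 342 CPM in DMSO embryos at 60 hpf, and its log2 fold change was 0.17 (SE 0.52) at 60 hpf and 0.38 (SE 0.52) at 36 hpf. Of the 4 tested minor arms, 3 had positive values at each time, with medians of 0.21 at 60 hpf and 0.42 at 36 hpf, against 0.11 and 0.06 over all minor arms tested.

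The ratio of minor to major arm within a hairpin is taken from 1 library and needs no scaling. For miR-30a, the minor arm had 88.9, 47.4 and 7.43 counts per 1000 of the major arm in TCDD embryos at 60 hpf, against 16.3, 5.20 and 8.55 in DMSO embryos. At 36 hpf it had 50.8, 87.0 and 44.8 per 1000 in TCDD embryos, against 16.9, 8.16 and 37.7 in DMSO embryos. All TCDD libraries were above all DMSO libraries at 36 hpf, while at 60 hpf TCDD replicate 3 fell among the DMSO libraries. The log2 ratio was higher by 1.75 in TCDD embryos (1.76 at 60 hpf and 1.75 at 36 hpf). The p was 0.025 in a two-sided exact permutation test within times, whose smallest possible p is 0.005, and 0.12 after adjustment over the 8 tests of arm ratios, so the difference did not pass. Without TCDD replicate 3 of 60 hpf no overlap was left at either time. The difference was then 2.27, with an adjusted p of 0.04 in the exact permutation test. Only this 1 of 16 alternatives passed. It left out the library that overlapped, and the p before adjustment was then the lowest this test can reach. The pass is therefore no separate support for a difference. Over the 16 the difference was 1.38 to 2.36, with an adjusted p of up to 0.32 in the exact permutation test.

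For miR-30e-2, the hairpin with the most balanced arms in the family, the minor arm had 159, 137 and 115 counts per 1000 of the major arm in TCDD embryos at 60 hpf, against 108, 70.6 and 46.6 in DMSO embryos. The groups did not overlap at 60 hpf. At 36 hpf the minor arm had 139, 167 and 75.2 per 1000 in TCDD embryos, against 59.5, 21.6 and 125 in DMSO embryos, with overlap. The difference in log2 ratio was 1.05, with p = 0.03 and an adjusted p of 0.12 in the exact permutation test. Without DMSO replicate 3 of 36 hpf, which lay above TCDD replicate 3, no overlap was left at either time. The difference was then 1.35, with an adjusted p of 0.04 in the same exact permutation test. Again only this 1 of 16 alternatives passed. It removed the overlap by leaving out a library, and the p before adjustment was again the lowest this test can reach. This pass too is no separate support for a difference. Over the 16 the difference was 0.71 to 1.35, with an adjusted p of up to 0.32 in the exact permutation test.

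The remaining hairpins gave smaller or less even differences. MiR-30c carried 0.919 ± 0.429 minor-arm counts per 1000 in TCDD embryos and 0.474 ± 0.216 in DMSO embryos at 60 hpf, against 0.413 ± 0.109 and 0.401 ± 0.177 at 36 hpf (SD, n = 3 each). The values of 36 hpf rest on only 8, 4 and 2 counts of miR-30c* in TCDD and 6, 4 and 26 in DMSO libraries. The log2 ratio of the miR-30c hairpin differed by 0.57 between treatments (adjusted p = 0.27, exact permutation test). MiR-30d had a difference of −0.13 at 60 hpf and 1.52 at 36 hpf, with an adjusted p of 0.567 over both in the exact permutation test. Its 36 hpf value rests on TCDD replicate 2, which had 40.7 minor-arm counts per 1000, against 5.66 and 4.25 in the other 2 TCDD libraries. Between 60 and 36 hpf none of the 4 arm ratios passed either. The miR-30a ratio was 0.88 lower on the log2 scale at 60 hpf (adjusted p = 0.36, exact permutation test), where both of its arms had fallen.

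**Figure D5:**
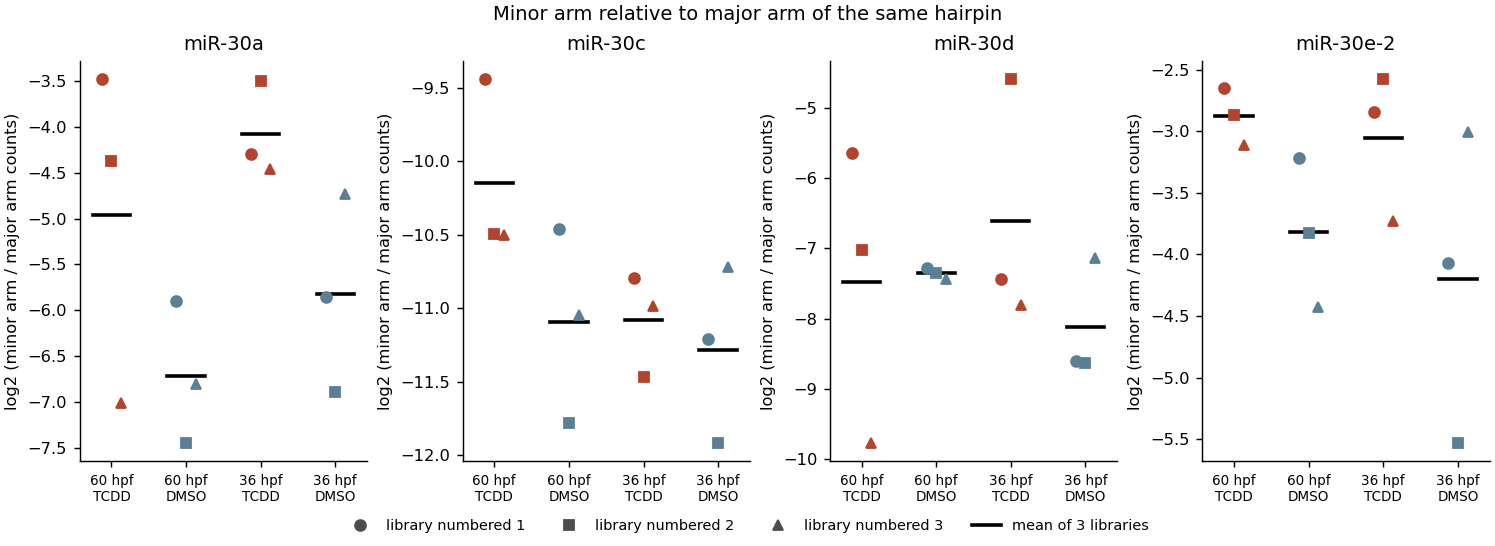
Log2 ratio of minor-arm over major-arm counts, after adding 0.5 to each count, for the 4 hairpins with a mean of at least 10 counts on both arms; TCDD is red, DMSO blue, symbols give the library number and bars the mean of 3 libraries. The miR-30e-2 TCDD libraries at 60 hpf and the miR-30a TCDD libraries at 36 hpf lie above their DMSO libraries, and TCDD replicate 3 of 60 hpf is the lowest TCDD library of miR-30a.

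Other miRNAs found in the vertebrate kidney were read from a list of 11 names (mir-10a, mir-10b, mir-192, mir-194a, mir-194b, mir-200a, mir-200b, mir-200c, mir-204, mir-429 and mir-429b), which gave 22 features, of which 19 were tested. In TCDD embryos 1 was called higher at 60 hpf, where 12.7% of all features were, and 1 lower, where 8.78% were. In DMSO embryos 2 were called higher, where 12.7% of all features were, and no others. With 19 features tested, counts this small do not set the list apart from all features. The median log2 fold change of the list was 0.07 in TCDD and 0.02 in DMSO embryos, against 0.08 over all features in each. MiR-192, which is also abundant in gut and liver, had 2434 ± 317 CPM in DMSO embryos at 60 hpf, against 1027 ± 37.0 CPM at 36 hpf (SD, n = 3 each), or 1.25 higher on the log2 scale (SE 0.34, edgeR adjusted p = 0.0245), and in TCDD embryos the value was 1.01 (edgeR adjusted p = 0.0550). MiR-194a, expressed from hairpins next to those of miR-192 in vertebrates, rose by 1.84 (SE 0.57, edgeR adjusted p = 0.0455) in DMSO embryos. It was low there, at 63.1 ± 14.8 CPM at 60 hpf and 18.0 ± 8.02 CPM at 36 hpf (SD, n = 3 each). The miR-194a value in TCDD embryos was 0.84 (edgeR adjusted p = 0.332). In TCDD embryos miR-194b* rose by 1.71 (SE 0.47, edgeR adjusted p = 0.0255), to 27.9 ± 1.77 CPM from 8.87 ± 5.84 CPM (SD, n = 3 each). In those 36 hpf libraries 3 counts correspond to 2.43 to 6.53 CPM before TMM scaling, so the lower level is near the floor. MiR-10b, a miRNA of the Hox clusters, fell by 1.43 in TCDD embryos (SE 0.44, edgeR adjusted p = 0.0375). In DMSO embryos miR-194b* was at 0.88 (edgeR adjusted p = 0.203) and miR-10b at −0.21 (edgeR adjusted p = 0.812). MiR-204, found in kidney tubule and eye, stood at 31408 ± 7287 CPM in DMSO embryos at 60 hpf, against 30389 ± 3067 CPM at 36 hpf (SD, n = 3 each; log2 fold change 0.05, SE 0.24). Between TCDD and DMSO embryos the edgeR adjusted p of the 19 features was 0.870 or more at 60 hpf and 0.996 at 36 hpf.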

How the data were processed

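Per the labels, small RNA libraries of total RNA from whole embryos were made with the SREK kit for the SOLiD V3 system. Each library's deposited table holds counts for named miRNA arms and Ensembl transcripts. Not given in the sources used here are the aligner, the genome build, the miRNA annotation and the rule for reads that fit several copies or family members. The split of reads between miR-30 members is therefore the authors'. The submitters' processing notes name edgeR.

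The 699 miRNA rows were reduced to 464 features by counting once those rows of the same name and arm whose total reached 80% of the leading copy. The 1797 Ensembl rows (1.20% to 1.65% of counts at 60 hpf and 2.24% to 5.35% at 36 hpf) were left out. This share did not overlap between the times, and its bearing on the differences between them was not tested. EdgeR 4.0.16 (R 4.3.3) was run on the counts of all 12 libraries with TMM scaling, a low-count filter (minimum count 10, total 15; 410 features kept), 4 group means and the robust quasi-likelihood test; a feature was called at an adjusted p (Benjamini-Hochberg over 410) under 0.05. The SE is the log2 fold change divided by the root of F. CPM are counts over TMM-scaled library totals. Arm ratios (0.5 added to each count) were tested by exact permutation of libraries within strata, adjusted over 8 tests. The code was tested on simulated counts.

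All members are named. The members, the kidney list and the markers were chosen with earlier results of these data known. MiRNAs of most similar pattern are the 5 with the highest Pearson correlation with the summed major arms, of those with a mean of at least 100 CPM. Alternatives were RLE and total count scaling, no filter, DESeq2 1.42.0, limma-voom (limma 3.58.1), a replicate block, summed copies, and leaving out libraries. The titles number the libraries of each group 1 to 3. TCDD libraries of the same number deviated together between 60 and 36 hpf, with correlations of 0.243, 0.254 and 0.405. The main fit and the arm-ratio tests treated all libraries as unpaired. Pairing by number entered only the block alternatives and those that left out both TCDD libraries of a number. That the numbers pair the TCDD libraries is read from the data alone. No other pair of groups had all 3 correlations over 0.1. Correlations between libraries of different numbers were not computed.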

Additional observations from a re-analysis of the deposited data

How the results depend on the processing

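MiR-30a was called lower at 60 hpf in 22 of 22 alternatives in TCDD embryos (−2.71 to −1.91) and in 22 of 22 in DMSO embryos (−2.58 to −2.12), miR-30a* in 21 of 22 (TCDD) and 22 of 22 (DMSO), and miR-30c in 16 of 22 (TCDD) and 1 of 22 (DMSO, DESeq2, −0.80). No miR-30 arm was called between TCDD and DMSO embryos in any of 22 alternatives. In 1 of them, the block over TCDD libraries alone, DMSO embryos were set against the level fitted for TCDD libraries numbered 1. Omission of both TCDD libraries numbered 2 and a block over TCDD libraries alone were added after seeing the data. The cause of the changes below was not tested.

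Features called between TCDD and DMSO at 60 hpf, 1 in all, became 10 with DESeq2, 0 without both TCDD libraries numbered 3, 0 without both numbered 2, and 0 to 1 when 1 library was left out. The difference of the TCDD effect had 6 calls with DESeq2 and 0 to 2 with 1 library left out. DESeq2 called 136 features between the times in TCDD embryos (88 with edgeR) and 120 in DMSO embryos (75 with edgeR). In TCDD embryos 37 were called without both libraries numbered 2 and 58 to 86 with 1 library left out, the lowest without TCDD replicate 2 of 36 hpf.

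With the library number as a block over all 12 libraries, 2 features were called between TCDD and DMSO at 60 hpf, and miR-30c lost its call between times in TCDD embryos (−1.12, edgeR adjusted p = 0.0580). Signs turned for miR-30e-2* in DMSO embryos between times (0.035) and for miR-30a in the difference of the TCDD effect (0.030). With the block limited to TCDD libraries, the comparison of TCDD with DMSO used the TCDD level fitted for libraries numbered 1. It therefore does not show what pairing does to that comparison. In it 0 features were called at 60 hpf, and miR-30c* at 36 hpf turned to 0.16. In the difference of the effect, where the block terms cancel, miR-30a turned to 0.097. The block changed no other miR-30 call.

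Other sign changes concerned uncalled values. For the difference of the TCDD effect, miR-30a gave 0.024 with RLE, 0.29 with total counts, 0.037 unfiltered, 0.024 with DESeq2, 0.021 with limma-voom and 0.11 with copies summed. In the same comparison total counts gave 0.25 for miR-30b, 0.23 for miR-30e-2 and 0.15 for miR-30e-2*. Summed copies gave 0.025 for miR-30b and 0.029 for miR-30e-2, limma-voom −0.011 for miR-30a*, and omission of both TCDD libraries numbered 2 gave 0.13 for miR-30b and −0.091 for miR-30d. Between TCDD and DMSO, limma-voom gave 0.045 for miR-30c* at 36 hpf, and omission of both TCDD libraries numbered 3 gave 0.13 for miR-30d* at 60 hpf. Between times in TCDD embryos, total counts gave 0.26 for miR-30b, 0.42 for miR-30c*, 0.092 for miR-30e-2 and 0.22 for miR-30e-2*. There miR-30c* was at 0.089 with copies summed and 0.19 without both TCDD libraries numbered 2. In DMSO embryos total counts gave 0.0083 for miR-30b and 0.072 for miR-30e-2*, and limma-voom 0.18 for miR-30e-2*. The miR-30d arm ratio between times turned to 0.032 with a pseudocount of 1 CPM, 0.22 without both TCDD libraries numbered 3 and 0.34 without both numbered 2.

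Leaving out 1 library at a time moved values across 0 in these cases. Between TCDD and DMSO at 60 hpf they were miR-30c* (−0.011 to 0.59), miR-30d* (−0.998 to 0.13) and miR-30e-2* (−0.074 to 0.46), and at 36 hpf miR-30c (−0.52 to 0.087), miR-30c* (−0.53 to 0.040) and miR-30e-2* (−0.12 to 0.77). For the difference of the effect they were miR-30a (−0.33 to 0.31), miR-30a* (−0.082 to 0.92), miR-30b (−0.32 to 0.16), miR-30d (−0.096 to 0.84), miR-30e-2 (−0.34 to 0.15) and miR-30e-2* (−0.58 to 0.32). Between times they were miR-30c* (−0.27 to 0.14) and miR-30e-2* (−0.43 to 0.082) in TCDD embryos, and miR-30b (−0.36 to 0.0052), miR-30d* (−0.51 to 0.033) and miR-30e-2* (−0.55 to 0.34) in DMSO embryos. Arm ratios ranged from −0.51 to 0.52 for miR-30d and −0.056 to 0.58 for miR-30e-2 between times, and from 1.38 to 2.27 for miR-30a and 0.71 to 1.35 for miR-30e-2 between treatments.

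The summed major arms averaged 25992 CPM with total counts and 22050 CPM with copies summed in TCDD embryos at 36 hpf, and 24845 CPM with RLE and 20041 CPM with copies summed in DMSO embryos at 60 hpf. Depth limits miR-30b* and miR-30c* most, with means of 3.83 and 14.3 counts per library.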

Other observations

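Among the 225 features with a mean of at least 100 CPM outside the family, those whose log2 CPM followed the log2 summed miR-30 major arms most closely over the 12 libraries were miR-451* (Pearson r = 0.88), miR-430j* (0.86), miR-363* (0.85), miR-430b* (0.85) and miR-153b (0.83). The points share their libraries and the scaling factor, and the 2 times are separate clusters, so these values are given as a description with no test. Within the 6 libraries of 60 hpf the 5 values of r were 0.82 to 0.96, and within the 6 of 36 hpf they were 0.22 to 0.57. At 60 hpf the summed arms of all TCDD libraries lay below those of all DMSO libraries. The values of r at 60 hpf therefore also hold this split by treatment. MiR-153b, a brain miRNA, had 2898 ± 568 CPM in TCDD embryos and 7628 ± 689 CPM in DMSO embryos at 60 hpf, and 15928 ± 4619 CPM in TCDD embryos and 11529 ± 5203 CPM in DMSO embryos at 36 hpf (SD, n = 3 each). MiR-451*, the minor arm of an erythroid miRNA, had 146 ± 44.1 CPM in TCDD embryos and 345 ± 26.8 CPM in DMSO embryos at 60 hpf, and 1056 ± 372 CPM in TCDD embryos and 1070 ± 894 CPM in DMSO embryos at 36 hpf (SD, n = 3 each). MiR-430b* and miR-430j* had nearly equal levels and come from a family of near-identical copies, so they may share reads.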
